A study of Homo sapiens with 8 samples.

Results

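The 4 libraries described here are those of the series in which the myeloma line NCI-H929 can be recognised by its own genes, and the question asked of them was which transcripts differed 72 hours after transduction with a CTBP2 vector instead of an empty vector. They were selected on FGFR3 above 10 FPKM (fragments per kilobase of transcript, scaled to sequencing depth) and CCND2 below 1 FPKM, and 4 of the 8 libraries of the series met both limits. The CTBP2 libraries were NCI-H929 CTBP2 replicate 1 and a library whose title is MM.1S CTBP2 replicate 2, called here the library labelled MM.1S CTBP2. The empty vector libraries were NCI-H929 empty vector replicates 1 and 2. NCI-H929 and MM.1S are established human lines of multiple myeloma, a cancer of plasma cells. All cells received a lentivirus, with or without the CTBP2 insert, and carried no other labelled change. Each line and vector had 2 libraries, which the series' design text calls biological duplicates, and each line is a single established culture. The added CTBP2 was supplied by the vector.

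CTBP2 is a transcriptional corepressor. It does not read DNA itself but is recruited by DNA-bound repressors, and it brings histone-modifying enzymes to their target genes. Myeloma cells keep much of the plasma cell program, in which IRF4, PRDM1 and XBP1 are central, and they are known to depend on IRF4 and MYC. The title of the series names MYC and IRF4.

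The label of 1 of the 4 libraries conflicts with its expression. FGFR3, a receptor tyrosine kinase switched on in NCI-H929 by the t(4;14) translocation, was at 13.6 and 22.2 FPKM in the CTBP2 libraries, against 13.8 and 21.7 FPKM in the empty vector libraries. CCND2, a D-type cyclin high in MM.1S, was at 0.0633 and 0.0582 FPKM in the CTBP2 libraries, against 0.0298 and 0.0592 FPKM in the empty vector libraries. The library titled NCI-H929 CTBP2 replicate 2 showed the reverse, with FGFR3 at 0.0399 FPKM and CCND2 at 60.7 FPKM, and was counted with MM.1S. These 2 genes chose the libraries, so their values are given with no test. MAF, a transcription factor high in MM.1S and not used in the choice, was at 27.9 and 30.6 FPKM in the CTBP2 libraries, against 18.3 and 19.9 FPKM with empty vector. The MM.1S-expressing libraries held 143 to 257 FPKM of it. Whether tubes, columns or cultures were exchanged was not tested. The line was therefore taken from these genes and the vector from the title, and counts are given with and without the library labelled MM.1S CTBP2. Where 2 values stand for a vector below, the CTBP2 values are those of NCI-H929 CTBP2 replicate 1 and then the library labelled MM.1S CTBP2, and the empty vector values are those of replicates 1 and 2.

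**Figure D1:**
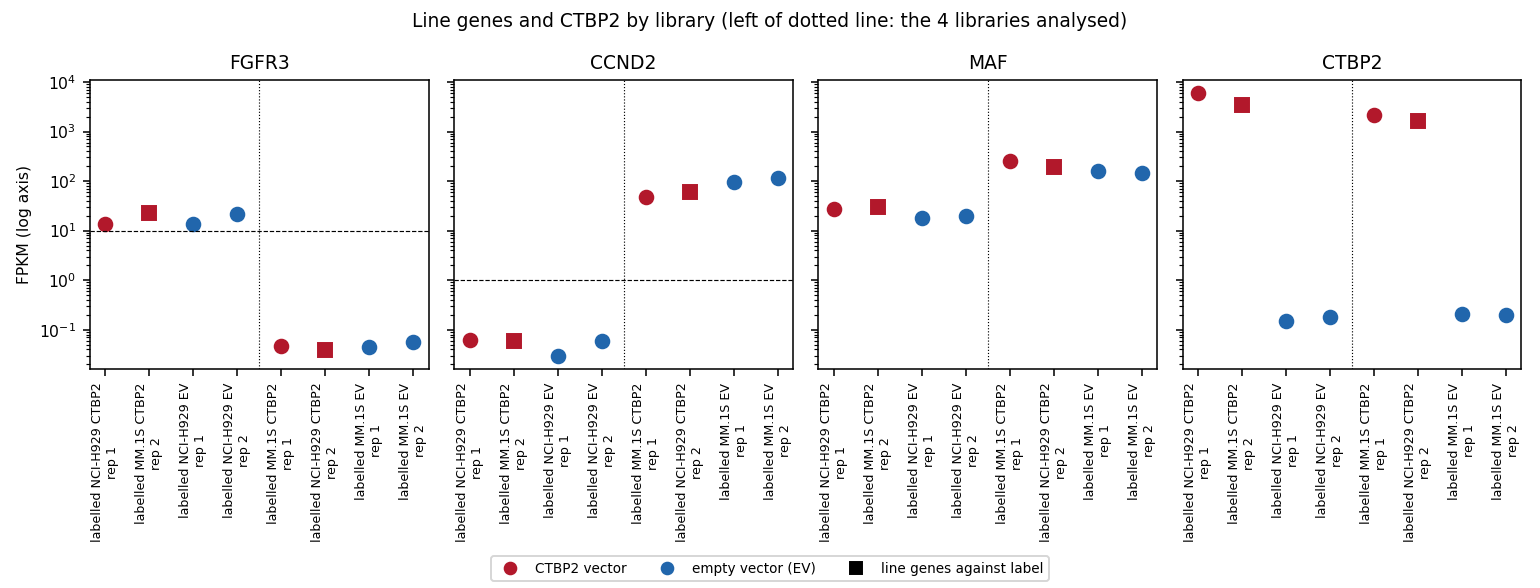
FGFR3, CCND2, MAF and CTBP2 in FPKM (log axis) in each of the 8 libraries, 1 point a library, with CTBP2 libraries in red and empty vector libraries in blue. The dashed lines mark 10 FPKM for FGFR3 and 1 FPKM for CCND2, squares are the libraries whose line genes go against their label, and the 4 libraries left of the dotted line have FGFR3 at 13.6 to 22.2 FPKM.

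Depth, estimated from the spacing of low values, was 17500000 to 20200000 fragments in the 4 libraries. The summed FPKM was 544210 and 459733 in the CTBP2 libraries, against 650097 and 659837 in the empty vector libraries, and the most abundant gene, a microRNA gene, took 2.86% to 11.8% of it. Plasma cell markers were present, with SDC1 at 198 and 314 FPKM in the CTBP2 libraries, against 192 and 341 FPKM in the empty vector libraries. Summed myeloid, erythroid, fibroblast and keratin markers stayed at or under 2.08 FPKM in every library of the 4, and none of their genes but HBA1 reached the expression filter. HBA1, an alpha globin, was at 1.13 and 0.161 FPKM in the CTBP2 libraries, against 1.54 and 1.31 FPKM in the empty vector libraries (log2 fold change -0.62, SE 0.30, limma adjusted p = 0.167). In bulk RNA such as this, a change in the number of cells of a kind and a change in RNA per cell cannot be told apart.

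CTBP2 (Entrez 1488) followed the vector titles. It was at 5884 and 3427 FPKM in the CTBP2 libraries, against 0.148 and 0.184 FPKM in the empty vector libraries. Its log2 fold change was 11.91 on the log2(FPKM + 1) scale (SE 0.29, limma adjusted p = 4.23e-05), and the FPKM does not separate vector from endogenous transcript. The paralog CTBP1 was at 52.8 and 51.6 FPKM in the CTBP2 libraries, against 40.7 and 41.2 FPKM in the empty vector libraries (log2 fold change 0.34, SE 0.18, adjusted p = 0.198). Both CTBP1 values of the CTBP2 libraries lay above both of the empty vector libraries, and the difference did not pass the threshold.

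With CTBP2, MYC was lower, and so were 48 of 56 nucleolar genes of ribosome production. Also called lower were 17 of 28 genes of polyamine, nucleotide and one-carbon synthesis, 20 of 46 of DNA replication and 12 of 26 chaperones. Of all genes tested 9.06% were called lower. Called higher were 21 of 24 histone genes, 22 of 34 interferon-stimulated genes and 11 of 28 growth brakes, against 11.7% of all genes. Of 11620 genes that reached 1 FPKM in 2 or more of the 4 libraries, 2415 were called at a limma adjusted p under 0.05, which is 20.8% of those tested. The calls were 1362 higher (11.7%) and 1053 lower (9.06%), and 769 of the higher and 530 of the lower ones moved by at least 1 on the log2 scale. The median log2 fold change of all genes was 0.02. In 462 of the 1362 genes called higher both empty vector libraries were below 1 FPKM, so these genes passed the expression filter only through the CTBP2 libraries.

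The number of calls depended on single libraries. In all 2415 called genes both CTBP2 libraries lay on the same side of both empty vector libraries. Leaving out 1 library could therefore not change their sign, and the kept signs below are no test. Without the library labelled MM.1S CTBP2, 988 genes were called, 665 higher (5.72%) and 323 lower (2.78%); 936 of the 2415 stayed called the same way, and all 2415 kept their sign. The count was 185 without empty vector replicate 1, 1001 without empty vector replicate 2 and 3920 without NCI-H929 CTBP2 replicate 1, and all 2415 kept their sign in each of these fits too. With no expression filter 2 genes were called, against 6249 at an unadjusted p under 0.05. With the line labels as given 2 were called, against 1468 at an unadjusted p under 0.05. In both of these settings 0 members of the gene lists below were called. Scaling set the balance of directions: 1157 higher and 1562 lower after a median-of-ratios rescale, and 2810 higher and 390 lower after scaling the libraries to equal totals. Those scalings move the median log2 fold change of all genes by -0.15 and 0.34. Both CTBP2 libraries lay above both empty vector libraries in 4149 genes (35.7%) and below them in 3828 genes (32.9%), so a separation of the libraries alone was common.

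**Figure D2:**
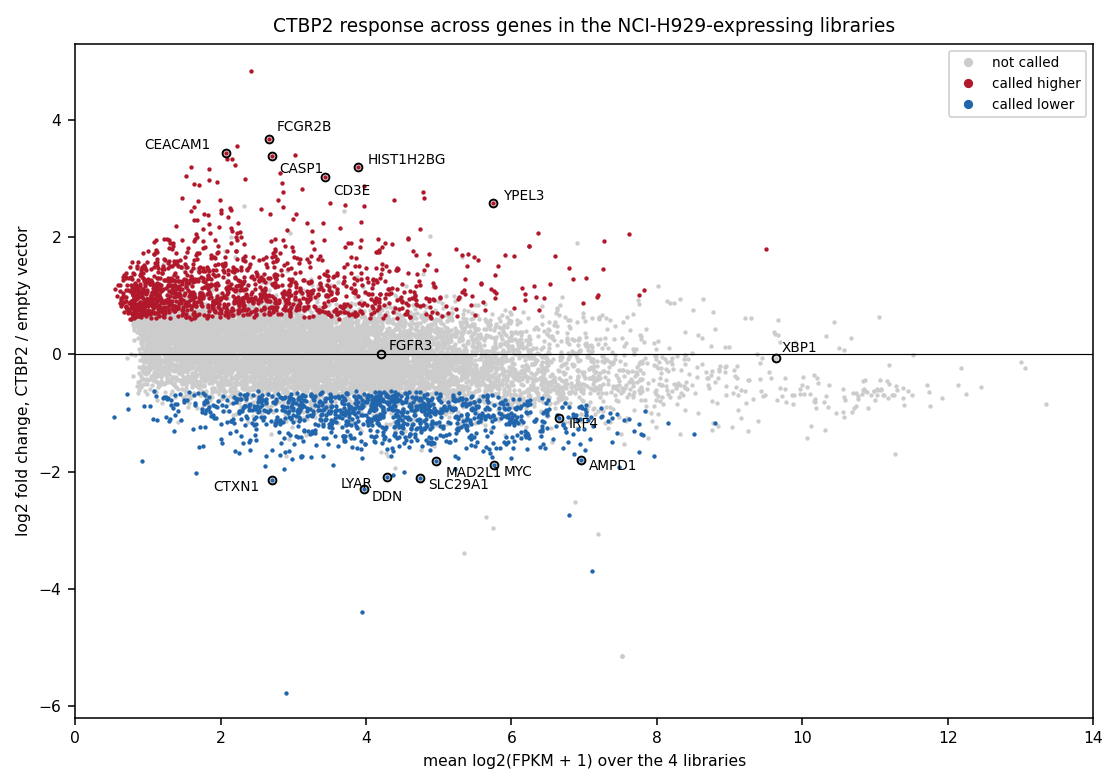
Log2 fold change of CTBP2 over empty vector against mean log2(FPKM + 1) for the genes tested in the 4 libraries, with genes called higher in red, called lower in blue and the rest in grey. FCGR2B stands at 3.67 and MYC at -1.88; CTBP2 and the microRNA genes MIR142 and MIR4737 lie beyond the axis and are not drawn.

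MYC and IRF4 were both lower with CTBP2. MYC (Entrez 4609), the transcription factor that drives growth and ribosome production, was at 27.8 and 26.8 FPKM in the CTBP2 libraries, against 115 and 92.9 FPKM in the empty vector libraries. Its log2 fold change was -1.88 (SE 0.20, adjusted p = 0.0106). The call held with each library left out, with values between -2.03 and -1.73. IRF4, the lymphoid transcription factor on which myeloma cells depend, was at 66.8 and 69.6 FPKM in the CTBP2 libraries, against 132 and 160.3 FPKM in the empty vector libraries. Its log2 fold change was -1.08 (SE 0.21, adjusted p = 0.0222). The libraries of the vectors did not overlap for either gene. The IRF4 call was lost without the library labelled MM.1S CTBP2 (adjusted p = 0.0531), without empty vector replicate 1 (0.121) and without empty vector replicate 2 (0.129), with the change between -1.22 and -0.94.

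Of 10 tested members of the MYC and MAX network, MYC included, 1 was called higher and 1 lower, which is close to the shares of all genes (11.7% and 9.06%). The median log2 fold change of 0.11 turned to -0.04 after the median-of-ratios rescale and to -0.15 without the library labelled MM.1S CTBP2. The 1 that rose was MXD4, which pairs with MAX and opposes MYC, at 31.3 and 31.0 FPKM in the CTBP2 libraries, against 16.8 and 16.9 FPKM in the empty vector libraries (log2 fold change 0.85, SE 0.17, adjusted p = 0.0224). Its call was lost without the library labelled MM.1S CTBP2 (adjusted p = 0.0543), empty vector replicate 1 (0.178) or empty vector replicate 2 (0.105).

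The other central plasma cell factors did not pass the test. PRDM1, the repressor that fixes plasma cell fate, was at 40.9 and 58.3 FPKM in the CTBP2 libraries, against 53.1 and 59.4 FPKM in the empty vector libraries (log2 fold change -0.20, SE 0.23, adjusted p = 0.555). XBP1, the factor that expands the secretory pathway, was at 618 and 976 FPKM in the CTBP2 libraries, against 629 and 1043 FPKM in the empty vector libraries (log2 fold change -0.06, SE 0.44, adjusted p = 0.930). The vectors overlapped for both genes. IKZF1, a zinc finger factor upstream of IRF4 in myeloma, was at 22.2 and 32.2 FPKM in the CTBP2 libraries, against 15.4 and 18 FPKM in the empty vector libraries (log2 fold change 0.65, SE 0.23, adjusted p = 0.0884). Its relative IKZF3 was at 17.1 and 37.7 FPKM in the CTBP2 libraries, against 19.8 and 21.4 FPKM in the empty vector libraries (log2 fold change 0.29, SE 0.35, adjusted p = 0.563). For IKZF1 the libraries stood apart without a call, and for IKZF3 the second CTBP2 library alone was high.

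Of 25 tested regulators and identity genes of plasma cells, 3 were called higher and 2 lower, IRF4 among the lower, close to the shares of all genes (11.7% and 9.06%). The median was -0.06, and it was 0.18 after quantile normalization and 0.34 with equal totals. FCRL5, an Fc receptor-like protein of the B lineage, was at 17.5 and 27.7 FPKM in the CTBP2 libraries, against 3.27 and 4.53 FPKM in the empty vector libraries (log2 fold change 2.25, SE 0.27, adjusted p = 0.0108). LAX1, a membrane adaptor of lymphocytes, rose by 1.06 (SE 0.25, adjusted p = 0.0328). EAF2, a transcription elongation factor, fell by 0.85 (SE 0.20, adjusted p = 0.0323). The FCRL5 call held without each library. Those of LAX1 and EAF2 were lost without the library labelled MM.1S CTBP2 (adjusted p = 0.0925 and 0.0924) and without empty vector replicate 1 (0.205 and 0.164), and that of EAF2 without empty vector replicate 2 as well (0.156). Of this list 1 gene was called higher and 0 lower without the library labelled MM.1S CTBP2. Counts were 1 and 0 without empty vector replicate 1 and 3 and 0 without empty vector replicate 2. Leaving out NCI-H929 CTBP2 replicate 1 gave 5 and 4.

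**Figure D3:**
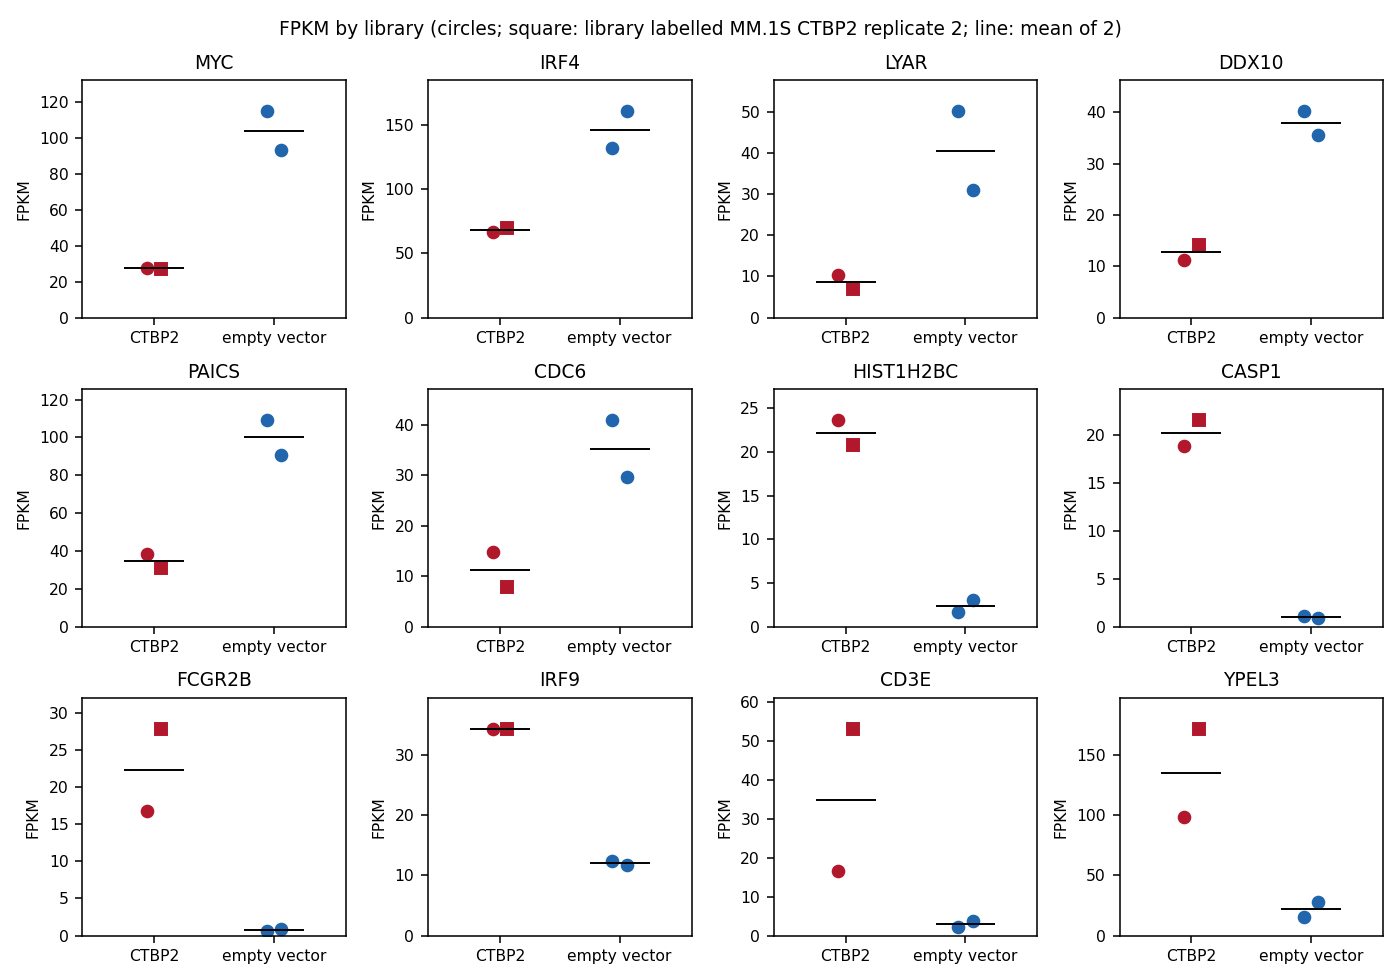
FPKM of 12 genes in the 4 libraries, with CTBP2 libraries in red left of empty vector libraries in blue, 1 point a library and a line at the mean of the 2. The square is the library labelled MM.1S CTBP2; for MYC both CTBP2 values lie under 28 FPKM and both empty vector values above 92 FPKM.

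Nucleolar genes of ribosome production were lower with CTBP2. Of 56 tested, 48 were called lower and 0 higher, with a median log2 fold change of -1.24, against 9.06% of all genes called lower. LYAR, a nucleolar zinc finger protein, was at 10.4 and 6.90 FPKM in the CTBP2 libraries, against 50.1 and 30.9 FPKM in the empty vector libraries (log2 fold change -2.09, SE 0.29, adjusted p = 0.0137). DDX10, an RNA helicase of the small subunit pathway, was at 11.3 and 14.3 FPKM in the CTBP2 libraries, against 40.24 and 35.7 FPKM in the empty vector libraries (log2 fold change -1.504, SE 0.19, adjusted p = 0.0116). In both genes every CTBP2 value was under 15 FPKM and every empty vector value above 30 FPKM. NOP2, an rRNA methyltransferase, fell by 1.40 (SE 0.18, adjusted p = 0.0118), and GAR1, a core protein of pseudouridylation particles, fell by 1.35 (SE 0.19, adjusted p = 0.0137). The list's count of lower genes was 25 without the library labelled MM.1S CTBP2 and 1 without empty vector replicate 1, where LYAR kept its call and DDX10, NOP2 and GAR1 had adjusted p = 0.0588, 0.0643 and 0.0794. The median lay between -1.47 and -1.06 over the fits that leave out a library, and it was -0.85 with equal totals.

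The E-box CACGTG, the sequence bound by MYC with MAX, was looked for in the promoters of these genes, since MYC fell with them. The windows run from 250 bases before to 50 bases after the gene start, in RefSeq sequence of GRCh38.p14, and CACGTG reads the same on both strands. It was in 15 of 39 nucleolar genes called lower that had a promoter in the table (38.5%), in 3 of the other 8 members (37.5%), in 10.8% of 9332 tested genes with a promoter and in 7.43% of all 27305 promoters. EBNA1BP2, a factor of large subunit assembly chosen for display after its values were seen, was at 40.9 and 31.8 FPKM in the CTBP2 libraries, against 123 and 86.0 FPKM in the empty vector libraries (log2 fold change -1.49, SE 0.25, adjusted p = 0.0176). It was picked among the called members whose windows held a match. Its window is chr1:43172521-43172820 on the minus strand, with the E-box in capitals starting 237 bases before the gene start.
EBNA1BP2: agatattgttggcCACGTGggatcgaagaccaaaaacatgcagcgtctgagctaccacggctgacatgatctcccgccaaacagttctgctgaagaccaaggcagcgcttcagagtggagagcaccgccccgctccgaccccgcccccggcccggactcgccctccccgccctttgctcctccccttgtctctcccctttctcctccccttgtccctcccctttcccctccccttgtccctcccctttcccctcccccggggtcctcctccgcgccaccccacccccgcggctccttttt
The letters were in members called lower and in the others at like shares, and a match is no measure of binding.

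Of 28 genes of polyamine, nucleotide and one-carbon synthesis 17 were called lower and 0 higher, against 9.06% and 11.7% of all genes. The median was -1.04. With equal totals 10 were called lower, against 390 of 11620 among all genes. PAICS, an enzyme of purine synthesis, was at 38.6 and 30.9 FPKM in the CTBP2 libraries, against 109 and 90.9 FPKM in the empty vector libraries (log2 fold change -1.501, SE 0.22, adjusted p = 0.0144). CTPS1, which makes CTP, was at 19 and 13.0 FPKM in the CTBP2 libraries, against 55.9 and 45.6 FPKM in the empty vector libraries (log2 fold change -1.62, SE 0.24, adjusted p = 0.0145). No CTBP2 value reached an empty vector value in either. MTHFD1L, a mitochondrial one-carbon enzyme, fell by 1.48 (SE 0.21, adjusted p = 0.0145) and GART, a purine synthesis enzyme, by 1.11 (SE 0.18, adjusted p = 0.0168). The count of lower members was 7 without the library labelled MM.1S CTBP2, 0 without empty vector replicate 1, 9 without empty vector replicate 2 and 26 without NCI-H929 CTBP2 replicate 1. These genes had adjusted p between 0.0619 and 0.123 without empty vector replicate 1, and the median stayed between -1.20 and -0.83 in these fits.

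Among genes of DNA replication and the G1/S transition 20 of 46 were called lower and 0 higher, with a median of -0.97, against 9.06% of all genes called lower. The count was 4 with the expression filter set over all 8 libraries and 6 after quantile normalization. Among all genes these settings gave 700 of 12583 and 796 of 11620 called lower. DSCC1, a clamp loader subunit of sister chromatid cohesion, was at 4.89 and 2.08 FPKM in the CTBP2 libraries, against 15.4 and 12.3 FPKM in the empty vector libraries (log2 fold change -1.79, SE 0.33, adjusted p = 0.0197). CDC6, which loads the replicative helicase, was at 14.7 and 7.87 FPKM in the CTBP2 libraries, against 40.9 and 29.5 FPKM in the empty vector libraries (log2 fold change -1.60, SE 0.31, adjusted p = 0.0219). In both, the library labelled MM.1S CTBP2 was the lowest of the 4. POLE2, a subunit of DNA polymerase epsilon, fell by 1.26 (SE 0.24, adjusted p = 0.0209), and TIPIN, of the replication fork protection complex, by 1.47 (SE 0.28, adjusted p = 0.0215). Of mitosis and G2/M genes 1 of 42 was called lower and 0 higher, against 9.06% and 11.7% of all genes, and the median was -0.84. An unadjusted limma p under 0.05 was found for 16, all of them lower, against 2164 lower of 11620 among all genes. In a fit of all 8 libraries by marker line 12 were called lower, against 1840 of 12583 among all genes. The 1 called was MAD2L1, of the spindle checkpoint, at 21.8 and 11.1 FPKM in the CTBP2 libraries, against 71.0 and 46.9 FPKM in the empty vector libraries (log2 fold change -1.82, SE 0.35, adjusted p = 0.0215).

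The 2 CTBP2 libraries differed from each other in these cell cycle genes. The summed FPKM of the replication list was 933 and 465 in the CTBP2 libraries, against 1642 and 1228 in the empty vector libraries, and that of the mitosis list was 1163 and 480.1 in the CTBP2 libraries, against 1708 and 1245 in the empty vector libraries. Each sum was thus higher in the library numbered 1 than in the library numbered 2 of its vector. With a replicate block in the fit, 37 of 42 mitosis genes and 43 of 46 replication genes were called lower, against 2615 of 11620 among all genes. The labels tie no replicate number to a culture or day, so whether such a block applies was not tested. Without the library labelled MM.1S CTBP2 the counts of lower genes were 3 and 0 and the medians -0.63 and -0.28. Without NCI-H929 CTBP2 replicate 1 they were 40 and 40 and the medians -1.51 and -1.48. Without empty vector replicate 1 they were 0 and 0, and without empty vector replicate 2 they were 12 and 2. CDC6, TIPIN and MAD2L1 lost the call without the library labelled MM.1S CTBP2 (adjusted p = 0.0519, 0.0554 and 0.0521), and these 3 with DSCC1 and POLE2 without empty vector replicate 1 (0.0743 to 0.113). Both medians stayed below 0 with each library left out, and their size differed between the CTBP2 libraries.

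The strings TTTCCCGC, TTTGGCGC, TTTCGCGC and TTTGCCGC, forms of the site of E2F factors that control G1/S genes, were searched on both strands of the same windows, counting a promoter a single time whichever it held. They were in 10 of 18 replication genes called lower with a promoter (55.6%), in 11 of the other 23 (47.8%), in 5.68% of tested genes and in 3.33% of all promoters. CDC6, picked among the called members whose windows held a match, is shown for its place among the named genes. Its window is chr17:40287629-40287928 on the plus strand, with the match in capitals, 7 bases after the start.
CDC6: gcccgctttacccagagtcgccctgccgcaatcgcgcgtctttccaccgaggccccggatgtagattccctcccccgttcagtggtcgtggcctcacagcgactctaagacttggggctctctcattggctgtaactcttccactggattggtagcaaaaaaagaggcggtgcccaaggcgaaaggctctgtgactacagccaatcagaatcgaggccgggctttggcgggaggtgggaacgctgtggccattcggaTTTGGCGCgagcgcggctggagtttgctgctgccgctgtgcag
A match is a description of the letters in the window and no measure of binding.

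Replication-dependent histone genes were higher while these replication genes were lower. Of 29 listed genes 24 were tested and 21 were called higher, with 0 lower and a median of 2.107, against 11.7% of all genes called higher. Of the 21, 6 passed the filter only through the CTBP2 libraries. Of the 18 members that reached 1 FPKM in an empty vector library, 15 were called higher, against 900 of 10917 among all genes. HIST1H2BC was at 23.6 and 20.8 FPKM in the CTBP2 libraries, against 1.65 and 3.07 FPKM in the empty vector libraries (log2 fold change 2.82, SE 0.25, adjusted p = 0.00806). HIST1H2BG was at 32.9 and 58.4 FPKM in the CTBP2 libraries, against 1.37 and 9.16 FPKM in the empty vector libraries (log2 fold change 3.19, SE 0.65, adjusted p = 0.0242). HIST1H3H was at 21.3 and 30.2 FPKM in the CTBP2 libraries, against 0.402 and 3.43 FPKM in the empty vector libraries (log2 fold change 3.40, SE 0.51, adjusted p = 0.0150). In all 3 the empty vector libraries differed more between themselves, in ratio, than the CTBP2 libraries did. HIST1H4E, HIST1H2BJ and HIST1H2BF rose by 2.62, 2.24 and 2.98. The gene copies of a histone class are alike, so their reads may be shared among copies. The count was 18 without the library labelled MM.1S CTBP2, where HIST1H2BG lost the call (adjusted p = 0.0847), and 13 without empty vector replicate 1.

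Growth brakes and cyclin-dependent kinase inhibitors were mixed, with 11 of 28 called higher and 1 lower and a median of 0.60, against 11.7% and 9.06% of all genes. Of the 11, 2 passed the filter only through the CTBP2 libraries, SESN3 among them. Of the 26 members that reached 1 FPKM in an empty vector library, 9 were called higher, against 900 of 10917 among all genes. With a filter of 5 FPKM 7 of 25 were called higher, against 630 of 7867 among all genes. After the median-of-ratios rescale it was 7 of 28, against 1157 of 11620. YPEL3, a growth-suppressing nuclear protein, was at 99.0 and 172 FPKM in the CTBP2 libraries, against 15.9 and 27.8 FPKM in the empty vector libraries (log2 fold change 2.58, SE 0.36, adjusted p = 0.0131). SESN3, a sestrin that restrains TOR signalling, was at 2.45 and 5.54 FPKM in the CTBP2 libraries, against 0.259 and 0.296 FPKM in the empty vector libraries (log2 fold change 1.90, SE 0.31, adjusted p = 0.0162). Both were higher in each CTBP2 library than in either empty vector library. YPEL5 rose by 1.52 (SE 0.22, adjusted p = 0.0145), and TSC22D3, a glucocorticoid-induced leucine zipper protein, by 1.39 (SE 0.24, adjusted p = 0.0185). The member called lower was DEPTOR, an inhibitor of TOR named after its values were seen, at 22.6 and 29.7 FPKM in the CTBP2 libraries, against 55.1 and 66.8 FPKM in the empty vector libraries. CDKN1A and CDKN1B, also named after their values were seen, had log2 fold changes of 0.53 (adjusted p = 0.200) and 0.79 (adjusted p = 0.146). Higher members numbered 6 without the library labelled MM.1S CTBP2 and 3, 7 and 15 without empty vector replicate 1, empty vector replicate 2 and NCI-H929 CTBP2 replicate 1. The call of TSC22D3 was lost without the library labelled MM.1S CTBP2 (adjusted p = 0.0548) and without empty vector replicate 2 (0.0574), and that of YPEL5 without empty vector replicate 1 (0.0703).

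Among regulators of apoptosis 7 of 25 were called higher and 0 lower (median 0.43), and among p53 targets 5 of 22 were called higher and 0 lower (median 0.50), against 11.7% of all genes called higher. Of the 7 apoptosis genes 1, BCL2, passed the filter only through the CTBP2 libraries. With equal totals the counts were 12 and 12, against 2810 of 11620 among all genes. With a filter of 5 FPKM they were 4 of 19 and 4 of 18, against 630 of 7867. With the filter over 8 libraries they were 5 and 3, against 1132 of 12583. FAS, a death receptor in both lists, was at 4.10 and 7.76 FPKM in the CTBP2 libraries, against 0.941 and 1.28 FPKM in the empty vector libraries (log2 fold change 1.67, SE 0.29, adjusted p = 0.0177). BBC3, a pro-apoptotic BH3 protein also in both, rose by 1.63 (SE 0.35, adjusted p = 0.0258). The called genes were of both kinds, since BIRC3, an inhibitor of apoptosis, rose by 1.65 (SE 0.28, adjusted p = 0.0176) and BCL2, the anti-apoptotic founder of its family, by 0.94 (SE 0.17, adjusted p = 0.0202). TP53INP1 was at 17.2 and 37.8 FPKM in the CTBP2 libraries, against 3.46 and 6.87 FPKM in the empty vector libraries (log2 fold change 2.17, SE 0.42, adjusted p = 0.0215), and TP53I3 rose by 0.81 (SE 0.17, adjusted p = 0.0276). The counts of higher members were 4 and 2 without the library labelled MM.1S CTBP2, 1 and 0 without empty vector replicate 1, and 4 and 3 without empty vector replicate 2. Leaving out NCI-H929 CTBP2 replicate 1 gave 11 and 9. BIRC3 alone of those named kept its call throughout; TP53INP1 and TP53I3 lost it without the library labelled MM.1S CTBP2 (both 0.0527). FAS, BCL2, BBC3, TP53INP1 and TP53I3 lost it without empty vector replicate 1 (0.0703 to 0.231), and BCL2 and TP53I3 without empty vector replicate 2 (0.102 and 0.116).

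Of 46 listed interferon-stimulated genes, the antiviral set induced by interferon receptors, 34 were tested and 22 were called higher with 0 lower, at a median of 1.19. With a filter of 5 FPKM 13 of 21 were called higher, against 630 of 7867 among all genes. Of the 22, 10 passed the filter only through the CTBP2 libraries. Of 23 members that reached 1 FPKM in an empty vector library 12 were called higher, against 900 of 10917 among all genes. IFIT3, an interferon-induced protein with tetratricopeptide repeats, was at 26.2 and 6.33 FPKM in the CTBP2 libraries, against 0.403 and 0.408 FPKM in the empty vector libraries (log2 fold change 3.33, SE 0.56, adjusted p = 0.0171). DTX3L, a ubiquitin ligase that partners PARP9, was at 4.87 and 7.50 FPKM in the CTBP2 libraries, against 0.161 and 0.442 FPKM in the empty vector libraries (log2 fold change 2.45, SE 0.24, adjusted p = 0.0104). The CTBP2 libraries stood above the empty vector ones in both, and the 2 CTBP2 values of IFIT3 were far apart. PARP9 rose by 1.97 (SE 0.20, adjusted p = 0.0106), the viral RNA sensor IFIH1 by 1.80 (SE 0.19, adjusted p = 0.0106) and IRF9, the DNA-binding part of the interferon response complex, by 1.44 (SE 0.17, adjusted p = 0.0108). IRF9 was at 34.3 FPKM in each CTBP2 library, against 12.4 and 11.7 FPKM in the empty vector libraries. The count was 17 without the library labelled MM.1S CTBP2, 8 without empty vector replicate 1 and 18 without empty vector replicate 2, and the 5 genes given here kept their calls with each library left out.

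The interferon-stimulated response element was searched as GAAANNGAAA on both strands. It was in 12 of 20 members called higher that had a promoter (60%), in 11 of the other 16 members (68.8%), in 2.91% of tested genes and in 3.65% of all promoters. The windows of IFIT3 and DTX3L are shown, with the matches in capitals. Both were picked for their large rises among the called members whose windows held a match. That of IFIT3 is chr10:89327747-89328046 on the plus strand and holds 2 matches, both written on the opposite strand, the first 156 bases before the start. That of DTX3L is chr3:122564088-122564387 on the plus strand, with 1 match 6 bases before the start.
IFIT3: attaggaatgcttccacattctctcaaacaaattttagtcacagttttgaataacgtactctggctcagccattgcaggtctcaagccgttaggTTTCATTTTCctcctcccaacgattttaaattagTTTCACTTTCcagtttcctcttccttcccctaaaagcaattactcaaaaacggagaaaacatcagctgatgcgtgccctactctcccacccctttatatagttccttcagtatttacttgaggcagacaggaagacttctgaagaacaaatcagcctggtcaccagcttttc
DTX3L: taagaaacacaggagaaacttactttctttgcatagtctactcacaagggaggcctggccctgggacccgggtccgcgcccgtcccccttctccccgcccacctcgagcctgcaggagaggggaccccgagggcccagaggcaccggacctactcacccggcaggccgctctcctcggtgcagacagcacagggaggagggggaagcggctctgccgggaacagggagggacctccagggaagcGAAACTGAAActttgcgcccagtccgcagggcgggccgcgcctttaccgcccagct
The other members carried the element at least as often as those called higher. Of the listed genes 12 were not tested, and such genes count among the other members.

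Antigen presentation genes of MHC class I and II showed 7 of 16 tested called higher and 0 lower, against 11.7% and 9.06% of all genes. The median was 0.60, and 6 of 22 listed genes were not tested. With a filter of 5 FPKM 3 of 12 were called higher, against 630 of 7867 among all genes, and 0 lower. Of the 7, 3 passed the filter only through the CTBP2 libraries. HLA-F, a non-classical class I chain, was at 25.8 and 22.0 FPKM in the CTBP2 libraries, against 8.52 and 5.39 FPKM in the empty vector libraries (log2 fold change 1.67, SE 0.24, adjusted p = 0.0145). NLRC5, the transactivator of class I genes, was at 8.69 and 6.90 FPKM in the CTBP2 libraries, against 2.40 and 1.86 FPKM in the empty vector libraries (log2 fold change 1.49, SE 0.20, adjusted p = 0.0129). Class II chains were low: HLA-DQB1 was at 3.13 and 2.94 FPKM and HLA-DRA at 2.55 and 4.93 FPKM in the CTBP2 libraries, against 0.234 and 0.11 FPKM and 0.674 and 0.388 FPKM in the empty vector libraries. HLA genes are alike in sequence, so their reads may be shared. These 4 genes kept their calls with each library left out, and the count was 6 without the library labelled MM.1S CTBP2, 4 without empty vector replicate 1 and 4 without empty vector replicate 2.

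The largest single rises were in cell surface and innate immune genes. FCGR2B, the inhibitory Fc receptor of B cells, was at 16.8 and 27.8 FPKM in the CTBP2 libraries, against 0.669 and 0.887 FPKM in the empty vector libraries (log2 fold change 3.67, SE 0.26, adjusted p = 0.00367). The gene did not reach 1 FPKM with the empty vector. CASP1, the inflammatory caspase, was at 18.8 and 21.5 FPKM in the CTBP2 libraries, against 1.10 and 0.935 FPKM in the empty vector libraries (log2 fold change 3.39, SE 0.18, adjusted p = 0.00151). CARD16, a CARD-only relative encoded beside CASP1, was at 16.7 and 23.0 FPKM in the CTBP2 libraries, against 0.982 and 1.92 FPKM in the empty vector libraries (log2 fold change 3.10, SE 0.26, adjusted p = 0.00772). CASP1 and CARD16 share sequence, so reads of the pair may be split. CEACAM1, an adhesion receptor, was at 7.30 and 22.2 FPKM in the CTBP2 libraries, against 0.0857 and 0.517 FPKM in the empty vector libraries (log2 fold change 3.43, SE 0.47, adjusted p = 0.0129).

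CD1A, a lipid-presenting molecule, was at 13.3 and 7.08 FPKM in the CTBP2 libraries, against 0.126 and 0.280 FPKM in the empty vector libraries (log2 fold change 3.16, SE 0.29, adjusted p = 0.00983). CD3E, a chain of the T cell receptor complex, was at 16.7 and 53.1 FPKM in the CTBP2 libraries, against 2.10 and 3.65 FPKM in the empty vector libraries (log2 fold change 3.02, SE 0.51, adjusted p = 0.0173). The other 4 T cell markers on the list, CD3D, CD3G, CD2 and CD8A, stayed at or under 0.955 FPKM in each of the 4 libraries. The 5 markers summed to 17.3 and 54.6 FPKM in the CTBP2 libraries, against 2.20 and 3.72 FPKM in the empty vector libraries. SEPP1, a plasma selenoprotein, the interferon-induced receptor transporter RTP4 and the tetraspanin CD82 rose by 3.33, 3.24 and 2.99, and each was below 1 FPKM in both empty vector libraries. CEACAM1 and CD1A were below 1 FPKM in both empty vector libraries too. FCGR2B, CEACAM1, CD1A, SEPP1, RTP4 and CD82 thus passed the expression filter only through the CTBP2 libraries, in which they were high. All of these largest rises kept their calls with each library left out. Those fits used the same filter, so for these genes the kept calls are no further support.

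The largest falls were of mixed function. RPL21, a ribosomal protein gene, was at 0.0129 and 0.0113 FPKM in the CTBP2 libraries, against 106 and 27.8 FPKM in the empty vector libraries (log2 fold change -5.78, SE 0.56, adjusted p = 0.0101); it has many near-identical copies, so its reads can be assigned elsewhere and the value is uncertain. SLC29A1, a nucleoside transporter, was at 15.3 and 9.34 FPKM in the CTBP2 libraries, against 59.0 and 50.9 FPKM in the empty vector libraries (log2 fold change -2.10, SE 0.26, adjusted p = 0.0108). AMPD1, the AMP deaminase, was at 76.3 and 56.1 FPKM in the CTBP2 libraries, against 216 and 246 FPKM in the empty vector libraries (log2 fold change -1.80, SE 0.25, adjusted p = 0.0129). SLC29A1 and AMPD1 both handle nucleosides or nucleotides, and neither was in the list of polyamine, nucleotide and one-carbon synthesis. PDGFB, a growth factor chain, was at 2.22 and 2.10 FPKM in the CTBP2 libraries, against 9.43 and 12.5 FPKM in the empty vector libraries (log2 fold change -1.91, SE 0.20, adjusted p = 0.0106). DDN, CTXN1, FAM189B, PRR22, HPDL, TLCD1 and the snoRNA host gene SNHG16 fell by 2.30, 2.14, 2.05, 2.02, 2.01, 1.96 and 1.96. Without the library labelled MM.1S CTBP2 the calls of DDN and SNHG16 were lost (adjusted p = 0.0519 and 0.0546). Without empty vector replicate 1 those of HPDL, SNHG16, TLCD1 and AMPD1 were lost (0.0505 to 0.0538).

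Of 32 tested genes of the ATF4 pathway, serine synthesis and tRNA charging, 16 were called lower and 2 higher, with a median of -0.77, against 9.06% and 11.7% of all genes. The lower count was 6 after quantile normalization and 6 with equal totals, against 796 and 390 of 11620 among all genes. PYCR1, an enzyme of proline synthesis, was at 37.5 and 20.7 FPKM in the CTBP2 libraries, against 112 and 83.5 FPKM in the empty vector libraries (log2 fold change -1.76, SE 0.32, adjusted p = 0.0191). The serine synthesis enzyme PSAT1 fell by 1.49 (SE 0.26, adjusted p = 0.0185) and the tRNA exporter XPOT by 1.11 (SE 0.19, adjusted p = 0.0175). VLDLR, a lipoprotein receptor on this list, went the other way, at 7.12 and 8.01 FPKM in the CTBP2 libraries, against 1.12 and 1.495 FPKM in the empty vector libraries (log2 fold change 1.90, SE 0.19, adjusted p = 0.0104). The counts of lower members were 4 without the library labelled MM.1S CTBP2, 0 without empty vector replicate 1 and 6 without empty vector replicate 2. PSAT1 lost its call without the library labelled MM.1S CTBP2 (0.0557), and PSAT1, PYCR1 and XPOT lost theirs without empty vector replicate 1 (0.0775 to 0.127).

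Of 26 heat shock and chaperone genes 12 were called lower and 0 higher, with a median of -1.04, against 9.06% and 11.7% of all genes. With equal totals 7 were called lower, against 390 of 11620 among all genes. HSPE1, the mitochondrial co-chaperonin, was at 81.6 and 62.7 FPKM in the CTBP2 libraries, against 204 and 213 FPKM in the empty vector libraries (log2 fold change -1.53, SE 0.23, adjusted p = 0.0152). TCP1, a subunit of the cytosolic chaperonin, fell by 1.24 (SE 0.21, adjusted p = 0.0177), FKBP4, an HSP90 co-chaperone, by 1.34 (SE 0.24, adjusted p = 0.0187) and CACYBP, a calcyclin-binding protein, by 1.07 (SE 0.18, adjusted p = 0.0176). Without the library labelled MM.1S CTBP2 the count was 4, and FKBP4 lost its call (0.0511). It was 0 without empty vector replicate 1, where these genes had adjusted p between 0.0799 and 0.128, and 5 without empty vector replicate 2, where CACYBP had 0.0521. Of 32 genes of the unfolded protein response and secretion, 2 were called lower and 0 higher, against 9.06% and 11.7% of all genes. The median of -0.35 turned to 0.04 with equal totals. MANF, a secreted stress-response factor, fell by 1.10 (SE 0.21, adjusted p = 0.0215) and SSR1, of the translocon-associated complex, by 0.67 (SE 0.18, adjusted p = 0.0452). MANF lost its call without the library labelled MM.1S CTBP2 (0.0518), empty vector replicate 1 (0.198) or empty vector replicate 2 (0.0831), and SSR1 lost its call with any of the 4 left out (0.067 to 0.349).

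Of 69 listed cytoplasmic ribosomal protein genes, which do not include RPL21, limma called 0, and 0 had an unadjusted p under 0.05, although all had lower means with CTBP2 and the median was -0.67. RPL24 was at 1222 and 803 FPKM in the CTBP2 libraries, against 2342 and 1691 FPKM in the empty vector libraries (log2 fold change -1.005, SE 0.48, adjusted p = 0.168). RPS7 was at 1032 and 695 FPKM in the CTBP2 libraries, against 1839 and 1400 FPKM in the empty vector libraries (log2 fold change -0.92, SE 0.44, adjusted p = 0.172). The median was -0.09 without the library labelled MM.1S CTBP2 and -1.21, with 34 called lower, without NCI-H929 CTBP2 replicate 1. The protein parts of the ribosome, like the cell cycle genes, were lowest in the library labelled MM.1S CTBP2.

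In energy metabolism, 2 of 48 oxidative phosphorylation genes were called lower and 0 higher, against 9.06% and 11.7% of all genes. The median of -0.40 became 0.0016 with equal totals. CYCS, cytochrome c, was at 26.0 and 21.3 FPKM in the CTBP2 libraries, against 61.7 and 54.6 FPKM in the empty vector libraries (log2 fold change -1.27, SE 0.20, adjusted p = 0.0154), and ATP5G1, a subunit of ATP synthase, fell by 1.18 (SE 0.31, adjusted p = 0.0423). Of 25 glycolysis and hypoxia genes 5 were called lower and 1 higher (median -0.58), against 9.06% and 11.7% of all genes. With equal totals 0 were called lower and 3 higher, against 390 and 2810 of 11620 genes. PFKM, SLC2A1, HK2 and BNIP3 fell by 0.97, 0.87, 0.77 and 0.72, the first 3 being a glycolytic kinase, the main glucose transporter and hexokinase 2. Cholesterol and fatty acid synthesis had 0 of 27 called by limma and 6 at an unadjusted p under 0.05, 1 higher and 5 lower, and its median of -0.29 turned to 0.10 with equal totals and to 0.12 without empty vector replicate 1. ACACA, the rate-limiting enzyme of fatty acid synthesis, had a log2 fold change of -0.62 (adjusted p = 0.0575), and STARD4, a sterol carrier, of 0.86 (adjusted p = 0.069). This list had 3 called lower without empty vector replicate 2 and 3 without NCI-H929 CTBP2 replicate 1. The glycolysis list had 0 calls without the library labelled MM.1S CTBP2, empty vector replicate 1 or empty vector replicate 2, and 10 lower and 2 higher without NCI-H929 CTBP2 replicate 1. The oxidative phosphorylation list had 1, 0, 1 and 13 lower in the same order. ATP5G1 and the 4 glycolysis genes named lost their calls without the library labelled MM.1S CTBP2 (0.0688 to 0.105), empty vector replicate 1 (0.174 to 0.293) or empty vector replicate 2 (0.0675 to 0.136), and CYCS without empty vector replicate 1 (0.0927).

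Of 35 lysosome and autophagy genes 10 were called higher and 0 lower, with a median of 0.58, against 11.7% of all genes called higher. The count was 25 with equal totals, against 2810 of 11620 among all genes. With all 8 libraries in 1 fit it was 17, against 2298 of 12583. CTSZ, a lysosomal cysteine protease, was at 27.0 and 26.6 FPKM in the CTBP2 libraries, against 3.27 and 4.06 FPKM in the empty vector libraries (log2 fold change 2.58, SE 0.18, adjusted p = 0.00364). CTSS, the cathepsin that trims class II invariant chain, was at 72.8 and 88.2 FPKM in the CTBP2 libraries, against 23.0 and 28.3 FPKM in the empty vector libraries (log2 fold change 1.61, SE 0.21, adjusted p = 0.0116). The replicates of each vector lay close together for both. GABARAPL1, an autophagosome protein, rose by 1.46 (SE 0.21, adjusted p = 0.0145) and TFE3, a transcription factor of lysosomal genes, by 1.11 (SE 0.18, adjusted p = 0.0156). It was 8 without the library labelled MM.1S CTBP2, 1 without empty vector replicate 1, where CTSS, GABARAPL1 and TFE3 had adjusted p = 0.065, 0.0743 and 0.0792, and 3 without empty vector replicate 2, where TFE3 had 0.0633.

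NF-kB targets showed 8 of 22 called higher and 1 lower (median 0.49), against 11.7% and 9.06% of all genes. Of the 8, 1 passed the filter only through the CTBP2 libraries. With a filter of 5 FPKM 4 of 16 were called higher, against 630 of 7867 among all genes. BCL3, a nuclear IkB protein, was at 27.5 and 23.6 FPKM in the CTBP2 libraries, against 9.31 and 10.8 FPKM in the empty vector libraries (log2 fold change 1.27, SE 0.19, adjusted p = 0.0145). TRAF1, a receptor adaptor, rose by 1.16 (SE 0.19, adjusted p = 0.0165), and the chemokine CCL5 fell by 1.31 (SE 0.27, adjusted p = 0.0248). Of 22 AP-1 and immediate early genes 2 were called higher and 1 lower, against 11.7% and 9.06% of all genes. The median of 0.16 turned to -0.14 without empty vector replicate 2. BHLHE40, a repressor of circadian and immune genes, rose by 1.59 (SE 0.27, adjusted p = 0.0177), IER5 by 1.23 (SE 0.27, adjusted p = 0.0291), and the phosphatase DUSP2 fell by 1.68 (SE 0.23, adjusted p = 0.0130). The NF-kB counts of higher and lower genes were 3 and 0 without the library labelled MM.1S CTBP2, 1 and 0 without empty vector replicate 1, and 3 and 2 without empty vector replicate 2. The AP-1 counts were 0 and 1, 1 and 0, and 1 and 2 in the same order. CCL5, BHLHE40 and IER5 lost their calls without the library labelled MM.1S CTBP2 (0.0518 to 0.0847), BCL3, TRAF1, CCL5, DUSP2 and IER5 without empty vector replicate 1 (0.0574 to 0.145), and IER5 without empty vector replicate 2 (0.0989).

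Factors of earlier B cell stages were low or absent: 11 of 22 were tested, of which 3 were called higher and 0 lower. Of all genes 11.7% were called higher and 9.06% lower. BCL6, the germinal centre repressor that can recruit CtBP, was at 1.22 and 1.34 FPKM in the CTBP2 libraries, against 0.0704 and 0.129 FPKM in the empty vector libraries (log2 fold change 1.05, SE 0.16, adjusted p = 0.0156). BLNK, a B cell receptor linker, rose by 1.03 (SE 0.23, adjusted p = 0.0307) and TCF4, an E protein, by 0.65 (SE 0.17, adjusted p = 0.0439). Of these, BCL6 and BLNK passed the filter only through the CTBP2 libraries. The median of 0.65 was -0.02 with a filter of 5 FPKM. Known CtBP partners had 1 of 20 called higher, BCL6, and 0 lower, against 11.7% and 9.06% of all genes. Their median of 0.08 turned to -0.08 after the median-of-ratios rescale and to -0.01 after quantile normalization. The count of CtBP partners was 0 without empty vector replicate 1 and 4 without NCI-H929 CTBP2 replicate 1. The B cell count was 2 without the library labelled MM.1S CTBP2, 0 without empty vector replicate 1 and 1 without empty vector replicate 2. BCL6, BLNK and TCF4 lost their calls without empty vector replicate 1 (0.0955 to 0.317), BLNK and TCF4 without empty vector replicate 2 (0.0639 and 0.186), and TCF4 without the library labelled MM.1S CTBP2 (0.0845).

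Epithelial junction genes, some of them classic CtBP targets in epithelia, were low, and 11 of 26 were tested. Called higher were 4, CEACAM1 among them, and 0 lower (median 0.64), against 11.7% and 9.06% of all genes. JUP, plakoglobin, was at 7.60 and 9.01 FPKM in the CTBP2 libraries, against 1.43 and 1.18 FPKM in the empty vector libraries (log2 fold change 2.01, SE 0.19, adjusted p = 0.00983). DSP, desmoplakin, rose by 1.26 (SE 0.17, adjusted p = 0.0124) and TJP1, a tight junction scaffold, by 0.68 (SE 0.18, adjusted p = 0.0453). CEACAM1 and DSP passed the filter only through the CTBP2 libraries. TJP1 lost its call with any of the 4 libraries left out (0.0578 to 0.311), and DSP without empty vector replicate 1 (0.0643). The count was 2 without empty vector replicate 1. Of 8 tested genes of the translocation and the line, 1 was called higher and 1 lower, against 11.7% and 9.06% of all genes. The list median was 0.35, and the member called higher passed the filter only through the CTBP2 libraries. CCND3, a D-type cyclin, fell by 0.81 (SE 0.19, adjusted p = 0.0323). WHSC1, the histone methyltransferase of the t(4;14) breakpoint, was at 106 and 152 FPKM in the CTBP2 libraries, against 65.0 and 85.6 FPKM in the empty vector libraries (log2 fold change 0.76, SE 0.27, adjusted p = 0.0869). CCND3 lost its call without empty vector replicate 1 (0.271), empty vector replicate 2 (0.0813) or the library labelled MM.1S CTBP2 (0.0876). The 2 immunoglobulin chain genes tested, IGLL5 and IGJ, had log2 fold changes of 0.31 (adjusted p = 0.661) and -0.01 (adjusted p = 0.990), and their median of 0.15 was -0.03 after the median-of-ratios rescale.

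**Figure D4:**
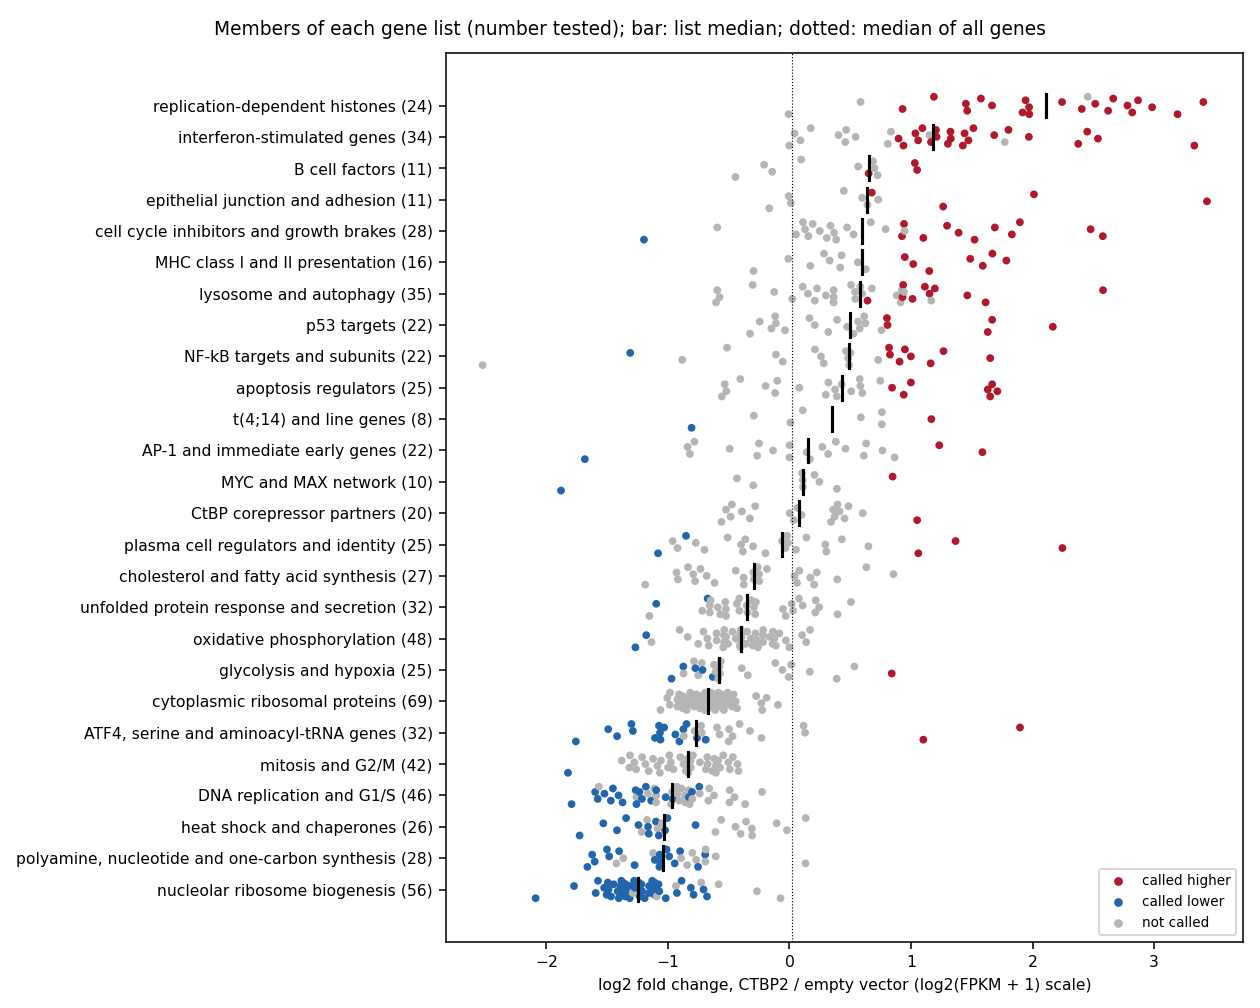
Log2 fold change of each tested member of the gene lists with 8 or more tested members, 1 point a gene, red where called higher and blue where called lower, with a bar at the list's median and a dotted line at the median of all genes. The nucleolar list at the bottom has its median at -1.24 and the histone list at the top at 2.107.

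The response in the NCI-H929-expressing libraries was set against that in the 4 MM.1S-expressing libraries, with CTBP2 in MM.1S CTBP2 replicate 1 and in the library titled NCI-H929 CTBP2 replicate 2. The log2 fold changes of 12583 genes correlated at a Pearson r of 0.638, a description across genes that share libraries. Genes called higher in NCI-H929 had a median of 1.05 there and 0.42 in MM.1S, and genes called lower had -1.002 there and -0.50 in MM.1S. The choice of genes by their NCI-H929 calls favours larger changes there, so these medians do not compare the strength of the 2 responses. Of the 2415 genes called in the fit of the 4 NCI-H929-expressing libraries (20.8% of 11620), 310 were also called in MM.1S. Of the 310, 305 moved in the same direction. The MM.1S calls, 688 of 12583 genes, came from the fit of all 8 libraries, in which 4138 genes were called in NCI-H929. The difference between the lines itself was called in 116 genes with a higher response in NCI-H929 (0.922% of those tested) and 42 with a lower one (0.334%). These 158 calls became 130 without the library labelled MM.1S CTBP2, 418 without NCI-H929 CTBP2 replicate 1, 6 without the first and 42 without the second NCI-H929 empty vector library. They became 16 without MM.1S CTBP2 replicate 1, 12 without the library titled NCI-H929 CTBP2 replicate 2, and 8 and 15 without MM.1S empty vector replicates 1 and 2. MYC was among the lower ones: its log2 fold change of -1.88 in NCI-H929 stood against -0.47 in MM.1S, a difference of -1.41 (SE 0.23, adjusted p = 0.0362). The difference was called in 1 of 8 fits that each left out a library, where its adjusted p lay between 0.0324 and 0.15. For IRF4 the changes were -1.08 in NCI-H929 and -1.26 in MM.1S (adjusted p of the difference = 0.797).

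CASP1 had the clearest difference, 2.92 (SE 0.21, adjusted p = 0.00166), and was called in all 8 such fits. It was at 18.8 and 21.5 FPKM with CTBP2 in NCI-H929, against 1.10 and 0.935 FPKM with empty vector, and at 31.6 and 31.5 FPKM with CTBP2 in MM.1S, against 20.9 and 24.1 FPKM with empty vector. CTSZ had a difference of 2.83 (SE 0.34, adjusted p = 0.0152). In MM.1S it was at 23.9 and 13.8 FPKM with CTBP2, against 24.2 and 19.9 FPKM with empty vector, and these values lay below the CTBP2 libraries and above the empty vector libraries of NCI-H929. CD1A and HIST1H2AM differed by 2.78 and 2.71 and stayed at or under 1.26 FPKM in every MM.1S-expressing library. HBD, a delta globin, differed by 2.72 through MM.1S, at 5.25 and 7.88 FPKM with CTBP2, against 35.1 and 34.0 FPKM with empty vector; in NCI-H929 it was at 8.10 and 4.25 FPKM with CTBP2, against 4.65 and 3.41 FPKM with empty vector. UBD, a ubiquitin-like modifier, was the opposite case, with a difference of -3.77 (SE 0.49, adjusted p = 0.0165), at 48.6 and 19.9 FPKM with CTBP2 in MM.1S, against 0.821 and 0.361 FPKM with empty vector. In NCI-H929 UBD was at 0.485 and 0.511 FPKM with CTBP2 and listed at 0 in both empty vector libraries. KRT15 and FRMD3 differed by -2.53 and -2.001 and did not reach 0.3 FPKM in the NCI-H929-expressing libraries. PDGFB and CTXN1 differed by -2.44 and -2.03, and CTXN1 was under 0.9 FPKM throughout MM.1S.

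**Figure D5:**
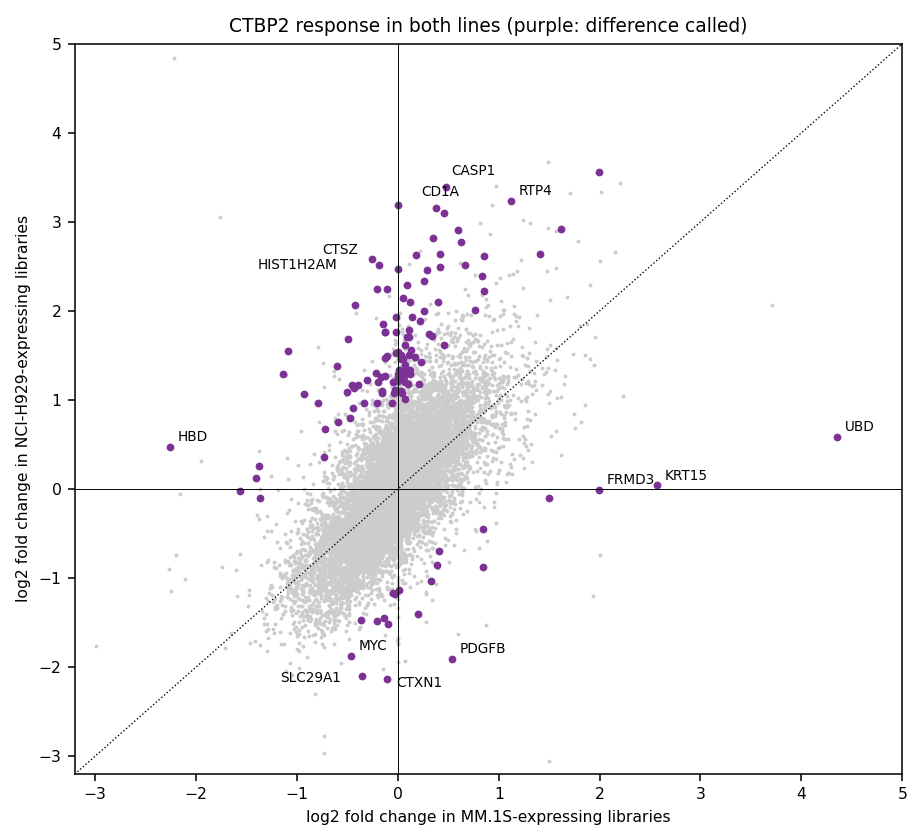
Log2 fold change of CTBP2 over empty vector in the NCI-H929-expressing libraries (vertical) against the MM.1S-expressing libraries (horizontal), 1 point a gene, purple where the difference between the lines was called; features beyond the axes are not drawn. CASP1 stands at 3.39 in NCI-H929 and 0.47 in MM.1S, and MYC at -1.88 and -0.47.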

How the data were processed

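RNA was sequenced from 8 libraries of the human myeloma lines NCI-H929 and MM.1S, 72 hours after lentiviral transduction with a CTBP2 or an empty vector, 2 libraries for each line and vector. RNA was purified on columns and libraries were made with a TruSeq kit, per the labels' protocols. The values used are FPKM of 25906 genes, as deposited by the authors in 1 table. Per the submitters' processing notes the build was GRCh37 (hg19), and STAR (2.6.0b-1), DESeq2, HTSeq, Trimmomatic and FastQC are listed, while the tool that made the FPKM is not given in the sources used here. Low values were whole multiples of a fragment too seldom to recover counts, so no count model was run.

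Values were transformed to log2(FPKM + 1), which understates the change of low genes. Genes that reached 1 FPKM in 2 or more of the 4 libraries were fitted with limma 3.58.1 in R 4.3.3 (empirical Bayes with a variance trend), and p-values were adjusted by Benjamini-Hochberg over all 11620 genes, with 0.05 as threshold. The difference between lines was fitted in all 8 libraries over 12583 genes. With 2 libraries against 2 an exact two-sided permutation test cannot go below p = 0.3333. A fit that leaves out a library leaves a vector with 1 library, which is assumed to vary like the other vector's. P-values measure the spread between the duplicates only.

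The libraries and 32 gene lists were chosen with earlier results of these data known. Named genes were MYC, IRF4, both CtBP genes, PRDM1, XBP1, IKZF1 and IKZF3, the 15 largest rises and falls among called genes averaging 5 FPKM or more under the higher vector, up to 4 called members of each list by smallest p (2 where none was called), and up to 5 genes each way for the difference between lines. Short RNA genes, clone names and immunoglobulin segments were left out, and a few qualifying genes are not reported here. Alternatives were a pseudocount of 0.1, no filter or 5 FPKM, a filter over 8 libraries, 3 rescalings, no variance trend, a replicate block, each library left out, all 8 libraries in 1 fit and the labels as given.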

Additional observations from a re-analysis of the deposited data

Results flagged for a closer look

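In the named genes given here the response to CTBP2 differed between the lines by limma's test of the difference itself in all 8 libraries (adjusted p under 0.05, log2 scale, NCI-H929-expressing minus MM.1S-expressing libraries). The response was higher in NCI-H929 for CASP1 (2.918), CTSZ (2.831), CD1A (2.778), HBD (2.725), HIST1H2AM (2.706), CARD16 (2.644), HIST1H2BC (2.466), HIST1H2BJ (2.444), RTP4 (2.119), HIST1H4E (1.767), HLA-DQB1 (1.671) and JUP (1.248). It was lower in NCI-H929 for UBD (-3.774), KRT15 (-2.526), PDGFB (-2.442), CTXN1 (-2.027), FRMD3 (-2.001), SLC29A1 (-1.748) and MYC (-1.411). CASP1 was called in all 8 fits that each left out a library, with adjusted p between 0.00388 and 0.0161. RTP4 and CTSZ were called in 5 of these fits, and the others in 1 to 4. RTP4 was at 12.6 and 13.8 FPKM with CTBP2 in NCI-H929, against 0.486 and 0.514 FPKM with empty vector, and at 35.3 and 32.6 FPKM with CTBP2 in MM.1S, against 13.7 and 16.6 FPKM with empty vector. The 2 libraries whose line genes go against their labels stand 1 in each line, so each of these differences rests on the assignment by FGFR3 and CCND2.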

How the results depend on the processing

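Against 2415 calls (1362 higher, 1053 lower), limma gave 1519 (630 higher) with a filter of 5 FPKM, 700 lower with the filter over 8 libraries, 866 higher after quantile normalization, 2810 higher and 390 lower with equal totals, 1299 with a minimum log2 fold change of 1, and 4138 (2298 higher, 1840 lower) with all 8 libraries by marker line in 1 fit. It gave 2 (1 higher, 1 lower) with no filter and 2 (0 higher, 2 lower) with the labels as given. By their line genes, the CTBP2 libraries of that last fit are of different lines and both empty vector libraries are NCI-H929. The labels tie no replicate number to a culture or day. Same-numbered libraries had deviations correlated at 0.483 across 11620 genes, and the replicate block gave 5446 calls (2831 higher, 2615 lower), with 37 of 42 mitosis genes and 43 of 46 replication genes lower. Leaving out 1 library gave 185 to 3920 calls, 158 to 2204 higher and 27 to 1716 lower. The 158 differences between lines became 67 with a pseudocount of 0.1, 62 with a filter of 5 FPKM, 60 with the replicate block and 6 to 418 without 1 library. List medians turned sign as follows, and the cause was not tested. With the labels as given they were -0.08332 (MYC and MAX network), -0.2309 (p53 targets), -0.3307 (AP-1), -0.1949 (CtBP partners) and -0.6446 (line genes). The median-of-ratios rescale gave -0.0405 (MYC and MAX network), -0.07605 (CtBP partners) and -0.03197 (immunoglobulin chains). Quantile normalization gave 0.1803 (plasma cell) and -0.01445 (CtBP partners). Equal totals gave 0.3449 (plasma cell), 0.03873 (unfolded protein response), 0.001608 (oxidative phosphorylation) and 0.09526 (cholesterol). The filter of 5 FPKM gave -0.02312 (B cell factors) and -0.1083 (CtBP partners). Without 1 library the ranges were -0.147 to 0.2714 (MYC and MAX network), -0.3636 to 0.1116 (plasma cell), -0.136 to 0.4916 (AP-1) and -0.6568 to 0.1192 (cholesterol). Of 115 named genes, 28 lost the call without the library labelled MM.1S CTBP2, 56 without empty vector replicate 1, 21 without empty vector replicate 2 and 2 without NCI-H929 CTBP2 replicate 1. The 115 include genes that were not called in the main fit, such as PRDM1 and XBP1, and these had no call to lose. Depth per library is estimated only, so no counting interval is given.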
